A study of Danio rerio with 24 samples.

Results

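The genes described here encode the contractile machinery of muscle and its close relatives in other cells. Members were chosen by symbol alone, as every annotated gene whose symbol begins with the name of a myosin light or heavy chain, troponin, tropomyosin, sarcomeric or smooth muscle actin, alpha-actinin, myozenin, myosin binding protein C, the fast calcium pump atp2a1, the muscle creatine kinases, a parvalbumin, the chaperone unc45b, desmin, or the regulators myod1 and myog. The rule found 55 genes of the 8793 with a symbol of their own on the array, and each is followed through 1 probe set, the one with the highest mean over all arrays. It also named ryanodine receptors, smyd1 and the myomesins, for which no probe set matched.

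The arrays profile zebrafish embryos homozygous for Tg(XlEef1a1:GFP)s854. As background on this line, its fluorescence labels the digestive organs that form from endoderm. The embryos were raised with phenylthiourea to block pigment, dissociated with enzymes at 2, 3, 4 or 6 days post fertilization (dpf, in lists of all ages written as day), and sorted by fluorescence into GFP+ and GFP- cells. All 8 groups thus share the transgene and the phenylthiourea, and the GFP- groups, which the GFP+ groups are set against, hold the rest of the embryo as well as any digestive cell that escaped the sort. Each group, a fraction at an age, has 3 arrays, 24 in all, hybridized with cDNA amplified from total RNA.

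As background, the sarcomere contracts when myosin heads on thick filaments pull on actin thin filaments. Calcium released into the fibre binds troponin C, and the troponin complex then moves tropomyosin off the myosin binding sites. The pump atp2a1 returns the calcium to the sarcoplasmic reticulum, parvalbumins buffer it in fast fibres, and creatine kinase restores ATP. In the zebrafish embryo, trunk muscle forms within the first day, so somites contract before the ages sampled, and the heart beats by then as well. Smooth muscle of the gut, by contrast, differentiates from mesoderm around the endodermal tube during the ages sampled.

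All values are scores: each deposited column is centred on 0 at its median and has an SD (standard deviation) of 1, so a score is a distance from that array's median probe set in units of 1 array SD. Scores of different probe sets are not compared as amounts of RNA. Differences were tested with limma across all 15502 non-control probe sets, with Benjamini-Hochberg adjustment over all of them, and "called" means an adjusted p under 0.05. In a bulk sample, fewer cells of a type and less RNA per cell cannot be told apart. No source used here states that the 3 arrays of a group came from separate clutches, and the p-values may therefore measure technical spread only. One library is unlike its replicates: the third GFP+ array at 6 dpf correlated with the other arrays of its group at 0.897 on average, and all other arrays at 0.925 to 0.979. Below it is called the array that stands apart, and a part of the results that depend on it are also given without it. The sort itself is visible in a list of 20 measured digestive organ markers, all of them called higher in GFP+ cells over the 4 ages. Their summed score ranged from 57.1 to 58.6 on the GFP+ arrays at 6 dpf and from 40.6 to 46.4 on the GFP- arrays of that age, so digestive transcripts were present in the GFP- fraction too. At 2 dpf the corresponding ranges were 24.3 to 26.9 in GFP+ and -2.36 to 0.42 in GFP- cells.

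Muscle transcripts were not confined to the GFP- fraction. At 2 dpf the median epidermis marker scored 2.48, 2.37 and 2.53 in GFP+ and 2.83, 2.88 and 2.49 in GFP- cells. The median cartilage and connective tissue marker scored 1.16, 1.38 and 1.1 in GFP+ and 2.63, 2.39 and 2.56 in GFP- cells. In GFP+ cells the median neuron marker scored 0.38, 0.31 and 0.25, and the median retina and lens marker was below the array median. Whether the muscle signal in GFP+ cells came from digestive or other cells was not tested. Over the 4 ages 29 members were called lower and 2 higher in GFP+ cells, 56.4% of the 55, where 58.4% of all probe sets were called (20.7% lower and 37.7% higher). The count called is thus near the background, and what differs is the direction. The median GFP+ minus GFP- difference was -0.22 array SD over the members and 0.08 over all probe sets. After quantile normalization of the scores the share of calls that were higher fell to 53.2%, against 64.5% as deposited, over all probe sets. By age, 16 members were called at 2 dpf, all lower, where 17% of all probe sets were called (7.36% lower and 9.66% higher). At 3 dpf 21 were lower and 1 higher (26.5% of all called, 12% lower and 14.5% higher). At 4 dpf 8 were lower and 1 higher (30.3% of all called, 11.3% lower and 19% higher), and at 6 dpf 10 were lower and 3 higher (38.2% of all called, 14.9% lower and 23.2% higher). All of these higher calls were lost after quantile normalization. The limma adjusted p was then 0.0571 for mybpc2b at 3 dpf and 0.123 for myoz1b at 4 dpf. At 6 dpf it was 0.248 for mybpc3, 0.32 for myoz1b and 0.111 for tnnt2c. Of all probe sets the called share grew with age, whereas the members' count was highest at 3 dpf. The count at 3 dpf was 14 without the third GFP- array of that age, and the count at 6 dpf was 6 without the second GFP- array of that age.

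Most calls with age were falls. Between 2 and 6 dpf 16 of the 55 members fell and 0 rose in GFP+ cells, 29.1% of them, where 22.2% of all probe sets were called (13% lower and 9.17% higher). In GFP- cells 27 fell and 5 rose, 58.2% of the members, where 18.4% of all probe sets were called (9.64% lower and 8.77% higher). The median difference of the members was -0.12 in GFP+ and -0.49 in GFP- cells, against 0.05 in GFP+ and -0.03 in GFP- cells over all probe sets. Both fractions shared 13 of these falls, which is 81.2% of those in GFP+ and 48.1% of those in GFP- cells. In opposite directions 0 members were called. The same shares over all probe sets are not at hand, so whether this sharing is particular to the members is not known. The GFP+ minus GFP- difference itself changed between 2 and 6 dpf for 10 members, 7 upward and 3 downward, where 8.42% of all probe sets were called (3.54% upward and 4.89% downward). Without the array that stands apart, 14 members fell and 1, desma, rose in GFP+ cells, 10 were called at 6 dpf and 30 over the 4 ages, and the difference changed for 11. The map of group means shows the members ordered by role.

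**Figure D1:**
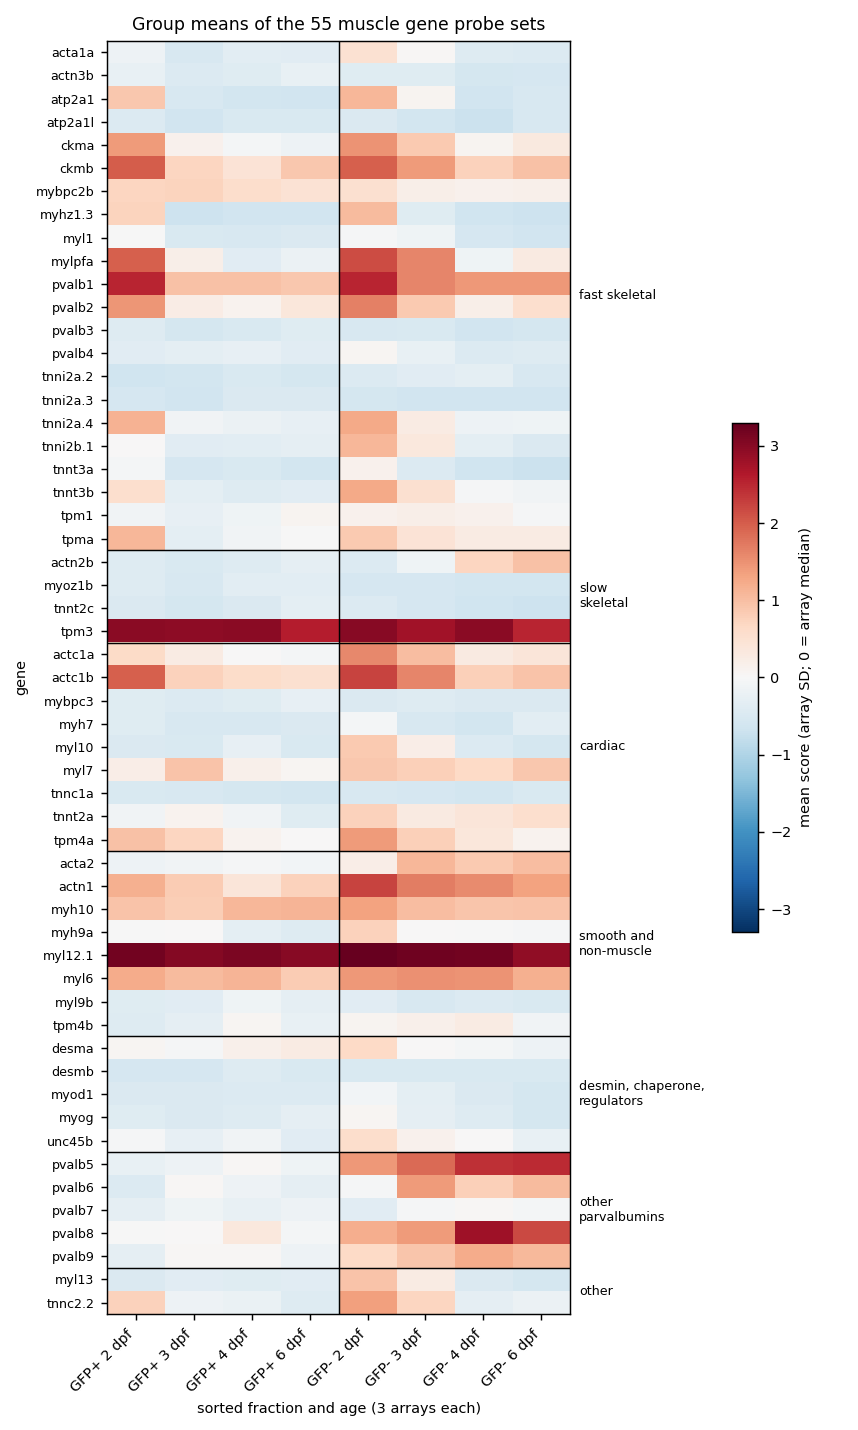
Group means of the 55 members as a colour map, with genes grouped by role down the page and the 4 GFP+ groups left of the 4 GFP- groups, each from 2 to 6 dpf; colour is the mean score of 3 arrays in array SD. Fast skeletal genes such as mylpfa are high at 2 dpf in both fractions and lower at 6 dpf, whereas pvalb5 and pvalb8 are high in the GFP- columns at every age.

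Of the 55 members 14 had all 8 group means below the array median, and 26.2% of all genes did. These are actn3b, atp2a1l, myl1, pvalb3, tnni2a.2, tnni2a.3, myoz1b, tnnt2c, mybpc3, myh7, tnnc1a, myl9b, desmb and myod1. A score below the median does not show whether a gene was expressed. At the other end, 25 members had a group mean of at least 1 and 8 of at least 2.

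Fast skeletal muscle genes form the largest group, with 22 members. At 2 dpf, the youngest age, most of those that scored above the array median did so in both fractions. The fast regulatory light chain mylpfa scored 1.58, 2.31 and 2.04 on the GFP+ arrays at 2 dpf, against 2.53, 1.81 and 2.11 on the GFP- arrays. The parvalbumin pvalb1 scored 2.43, 2.64 and 2.43 in GFP+ and 3.00, 2.29 and 2.26 in GFP- cells, and the muscle creatine kinase ckma 1.26, 1.57 and 1.35 in GFP+ and 1.75, 1.34 and 1.35 in GFP- cells. The fractions overlapped for all of these genes. The GFP+ minus GFP- difference was -0.18 for mylpfa (95% interval -0.74 to 0.38), -0.01 for pvalb1 (-1.0 to 0.97) and -0.08 for ckma (-0.43 to 0.26). For the second creatine kinase gene ckmb it was 0.02 (-0.44 to 0.48), for the calcium pump gene atp2a1 -0.21 (-0.59 to 0.18) and for the tropomyosin gene tpma 0.22 (-0.26 to 0.69). Equal levels are not shown by this, since the interval for pvalb1 spans about 1 array SD on either side. Only 4 of the 22 fast genes were called at 2 dpf, all lower in GFP+ cells: tnni2b.1, acta1a, tnnt3b and pvalb4. Of all probe sets 17% were called at that age, with 7.36% lower and 9.66% higher. Without the first GFP+ array of that age tnnt3b was not called (-0.48, adjusted p = 0.136), and without the first GFP- array neither tnnt3b (-0.54, adjusted p = 0.114) nor pvalb4 (-0.31, adjusted p = 0.104).

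Of the 22 fast genes 11 fell between 6 and 2 dpf in GFP+ and 12 in GFP- cells, and 0 rose, where 13% of all probe sets fell in GFP+ and 9.64% in GFP- cells. In GFP+ cells mylpfa scored 1.58, 2.31 and 2.04 on day 2, 0.13, -0.26 and 0.73 on day 3, -0.34, -0.32 and -0.47 on day 4 and -0.25, 0.05 and -0.41 on day 6. In GFP- cells it scored 2.53, 1.81 and 2.11 on day 2, 1.51, 1.22 and 2.12 on day 3, 0.10, -0.48 and -0.07 on day 4 and 0.51, 0.53 and -0.13 on day 6. For mylpfa the GFP+ arrays were thus down by 3 dpf and the GFP- arrays by 4 dpf, with no overlap between 6 and 2 dpf in either fraction. Between 6 and 2 dpf mylpfa fell by 2.18 ± 0.27 array SD in GFP+ (adjusted p = 5.95e-06) and by 1.85 ± 0.27 in GFP- cells (adjusted p = 5.34e-05; SE, n = 3 arrays per group here and below). A second mylpfa probe set also fell, by 1.08 in GFP+ and 1.3 in GFP- cells.

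The creatine kinase gene ckma scored 1.26, 1.57 and 1.35 on day 2, -0.08, 0.03 and 0.48 on day 3, -0.16, -0.01 and -0.05 on day 4 and -0.24, -0.14 and -0.11 on day 6 in GFP+ cells. In GFP- cells its scores were 1.75, 1.34 and 1.35 on day 2, 0.67, 0.77 and 1.17 on day 3, 0.07, 0.15 and 0.03 on day 4 and 0.49, 0.50 and -0.06 on day 6. It fell by 1.56 ± 0.16 between 6 and 2 dpf in GFP+ (adjusted p = 1.08e-06) and by 1.17 ± 0.16 in GFP- cells (adjusted p = 3.87e-05). The calcium pump gene atp2a1 scored -0.63, -0.63 and -0.65 at 6 dpf and 0.42, 1.15 and 1.07 at 2 dpf in GFP+ cells. In GFP- cells it scored -0.57, -0.33 and -0.71 at 6 dpf and 1.51, 0.93 and 0.82 at 2 dpf. Neither fraction overlapped between the ages, and atp2a1 fell by 1.52 ± 0.19 in GFP+ and by 1.62 ± 0.19 in GFP- cells (adjusted p = 5.43e-06 and 3.52e-06). The parvalbumin gene pvalb1, a calcium buffer of fast fibres, scored 1.18, 1.28 and 0.19 at 6 dpf and 2.43, 2.64 and 2.43 at 2 dpf in GFP+ cells. It fell there by 1.62 ± 0.47 (adjusted p = 0.0165). Without the third GFP+ array at 6 dpf, which has the lowest of these scores, the difference was -1.27, adjusted p = 0.0823, and without the second GFP+ array at 2 dpf -1.55, adjusted p = 0.0596. In GFP- cells pvalb1 scored 1.73, 1.92 and 0.65 at 6 dpf and 3.00, 2.29 and 2.26 at 2 dpf, a difference of -1.09 ± 0.47 that was not called (adjusted p = 0.128). The groups do not overlap in either fraction.

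The fast troponin I gene tnni2a.4 and the fast myosin heavy chain gene myhz1.3 spread widely between replicates at 2 dpf. On the GFP+ arrays tnni2a.4 scored 0.38, 1.63 and 1.43 at 2 dpf, and myhz1.3 scored -0.33, 1.44 and 1.12. On the GFP- arrays the 2 dpf scores were 1.74, 1.19 and 0.83 for tnni2a.4 and 1.63, 1.04 and 0.47 for myhz1.3. The first GFP+ array at 2 dpf was the low one for both, and for the troponin C gene tnnc2.2 as well (0.04, 1.18 and 1.04). At 6 dpf tnni2a.4 scored -0.23, -0.08 and -0.47 in GFP+ and -0.03, -0.13 and -0.30 in GFP- cells, and myhz1.3 -0.56, -0.43 and -0.90 in GFP+ and -0.59, -0.77 and -0.70 in GFP- cells. Between 6 and 2 dpf tnni2a.4 fell by 1.40 ± 0.26 in GFP+ and by 1.41 ± 0.26 in GFP- cells (adjusted p = 0.000465 and 0.000622). For myhz1.3 the falls were 1.37 ± 0.32 in GFP+ and 1.74 ± 0.32 in GFP- cells (adjusted p = 0.00305 and 0.000517). The fall of myhz1.3 in GFP+ cells was not called in a fit of those 6 arrays alone (adjusted p = 0.0807). Fast myosin heavy chain genes are near-identical tandem copies, so the signal of a myhz1.3 probe set may include its neighbours. A probe set annotated to 6 fast heavy chain genes, myhz1.3 among them, fell by 1.79 in GFP+ and 1.78 in GFP- cells. The tnni2a copies carry the same doubt, as 1 probe set is annotated to both tnni2a.4 and tnni2a.2.

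**Figure D2:**
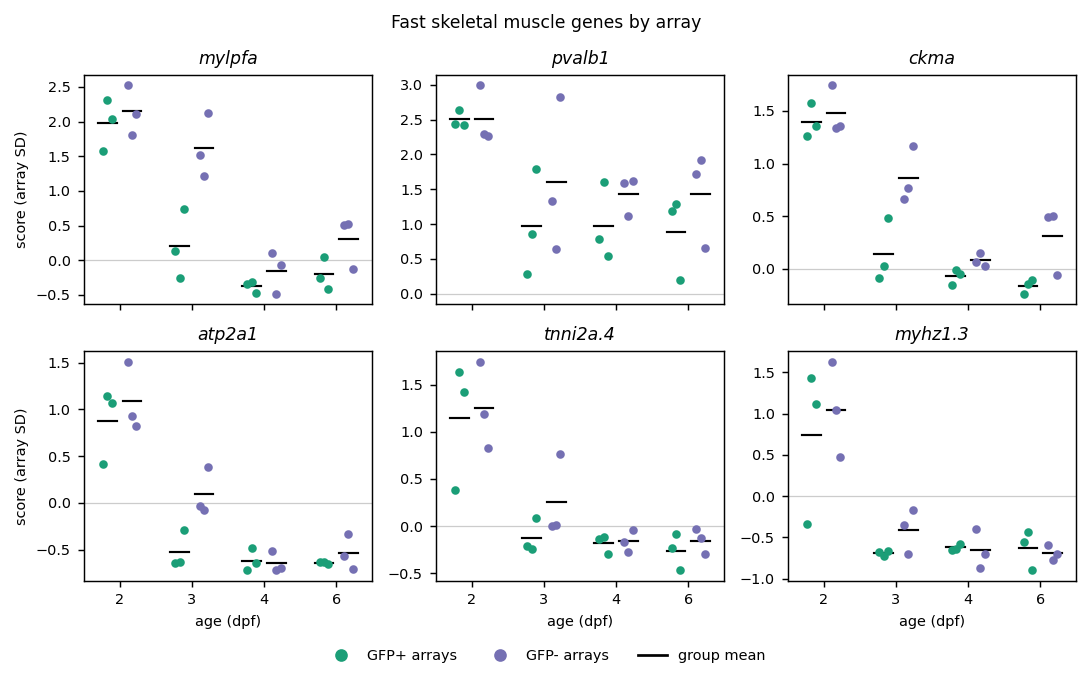
Scores of 6 fast skeletal muscle genes on each of the 24 arrays (y axis, array SD) by age in dpf (x axis), with GFP+ and GFP- arrays as points and group means as short lines. At 2 dpf the fractions overlap for every gene shown, and at 6 dpf the group means of mylpfa are -0.20 in GFP+ and 0.30 in GFP- cells.

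Besides those above, ckmb (-1.11 ± 0.22 in GFP+ and -1.0 ± 0.22 in GFP- cells) and the troponin T genes tnnt3b (-0.91 ± 0.20 in GFP+ and -1.36 ± 0.20 in GFP- cells) and tnnt3a (-0.56 ± 0.17 in GFP+ and -0.86 ± 0.17 in GFP- cells) fell in both. So did the essential light chain gene myl1, by 0.47 ± 0.13 in GFP+ and 0.60 ± 0.13 in GFP- cells. For tnnt3a and myl1 the fall in GFP+ cells was not called without the second GFP+ array at 2 dpf (-0.36, adjusted p = 0.165, for tnnt3a and -0.39, adjusted p = 0.0714, for myl1). The tnnt3a call was also lost without the third GFP+ array at 2 dpf (-0.49, adjusted p = 0.0844) or the first at 6 dpf (-0.53, adjusted p = 0.0579). The tropomyosin gene tpma fell in GFP+ cells (-1.12 ± 0.23, adjusted p = 0.00113) and measured -0.60 ± 0.23 in GFP- cells (adjusted p = 0.0795). The parvalbumin gene pvalb2, whose replicates spread widely, measured -1.08 ± 0.43 in GFP+ and -1.09 ± 0.43 in GFP- cells and was called in neither (adjusted p = 0.0805 and 0.0868).

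The mean over the 22 fast genes by array follows their course. In GFP+ cells it was 0.29, 0.70 and 0.57 on day 2, -0.29, -0.31 and -0.0048 on day 3, -0.23, -0.18 and -0.25 on day 4, and -0.13, -0.11 and -0.30 on day 6. In GFP- cells it was 0.91, 0.60 and 0.59 on day 2, 0.14, 0.015 and 0.49 on day 3, -0.093, -0.28 and -0.16 on day 4, and -0.015, -0.11 and -0.29 on day 6. All GFP+ arrays from 3 dpf on lie below 0, whereas all 3 GFP- arrays at 3 dpf are above it. Both fractions were lower at 3 than at 2 dpf, but whether by a like amount depends on the measure. The median 3 minus 2 dpf difference of the fast genes was -0.50 in GFP+ and -0.50 in GFP- cells. Averaged over the 3 arrays, their mean in GFP+ cells was 0.52 at 2 dpf, against -0.20 a day later. The GFP- averages of these ages, 0.70 and 0.21, lie closer together. The comparisons of neighbouring ages that follow were added after seeing the data. Between 3 and 2 dpf 8 members fell in GFP+ cells, all of them fast genes, where 0.826% of all probe sets were called (0.29% lower and 0.535% higher). They are mylpfa (-1.78 ± 0.27), tpma (-1.40 ± 0.23), atp2a1 (-1.40 ± 0.19), ckmb (-1.29 ± 0.22), ckma (-1.25 ± 0.16), myhz1.3, tnni2a.4 and tnnt3b. Without single arrays of these groups the count went down to 5, since the last 3 were not called without the second or the third GFP+ array at 2 dpf, or the first or the second at 3 dpf. In GFP- cells 11 members fell, 7 of them fast genes (tnnt3b, tnni2b.1, ckma, atp2a1, myhz1.3, tnni2a.4 and acta1a), and 2 rose between these ages, where 4.83% of all probe sets were called (1.63% lower and 3.2% higher), and 6 were called without the second GFP- array at 3 dpf.

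Between 4 and 3 dpf 7 members fell and 2 rose in GFP- cells, where 4.08% of all probe sets were called (2.57% lower and 1.5% higher). The falls were those of mylpfa (-1.77 ± 0.27, adjusted p = 0.000942), ckma (-0.79 ± 0.16), atp2a1 (-0.74 ± 0.19), tnni2b.1, acta1a, myl10 and myl13. The 2 rises were those of pvalb8 and actn2b. In a fit of those 6 arrays alone 0 of the 9 were called, and acta1a, actn2b, atp2a1 and ckma were each lost without some single array. In GFP+ cells only the tropomyosin gene tpm4a was called between 4 and 3 dpf (-0.59 ± 0.17, adjusted p = 0.0426), where 6.89% of all probe sets were (3.06% lower and 3.83% higher). That call was lost in 12 of the 24 fits without 1 array. Its adjusted p was highest without the third GFP+ array at 4 dpf (-0.44, adjusted p = 0.226). The limma test called 0 members between 6 and 4 dpf in either fraction, where 4.59% of all probe sets were called in GFP+ and 0.497% in GFP- cells. At an unadjusted p under 0.05 there were 2 members in GFP+ and 4 in GFP- cells.

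The fractions parted most at 3 dpf, when 10 of the 22 fast genes were called lower in GFP+ cells and 1 higher, while 0 were lower at 4 dpf and 1 at 6 dpf. Of all probe sets 12%, 11.3% and 14.9% were called lower at 3, 4 and 6 dpf, so the counts at 4 and 6 dpf lay below those shares. By then the fast genes scored low in both fractions. Their median, averaged over arrays, was -0.34 in GFP+ and -0.34 in GFP- cells at 4 dpf, and -0.31 and -0.41 at 6 dpf. Whether such low scores limited the calls at and between these ages was not tested. The fast gene called higher at 3 dpf, mybpc2b (0.56 ± 0.19, adjusted p = 0.034), was not called without the first GFP+ array at 3 dpf (0.39, adjusted p = 0.201). The light chain gene mylpfa scored 0.13, -0.26 and 0.73 in GFP+ and 1.51, 1.22 and 2.12 in GFP- cells at 3 dpf, without overlap, a difference of -1.42 ± 0.27 (adjusted p = 0.000443). For tnnt3b the difference was -0.85 ± 0.20 (adjusted p = 0.00325), and for ckma -0.72 ± 0.16 (adjusted p = 0.00232). The genes tpma (-0.76 ± 0.23), ckmb (-0.71 ± 0.22), atp2a1 (-0.61 ± 0.19), myl1 (-0.37 ± 0.13) and tpm1 (-0.46 ± 0.15) were called lower as well. These 5 calls were each lost without the first or the second GFP+ array at 3 dpf, and those other than tpm1 also without the third GFP- array, without which tpma measured -0.54, adjusted p = 0.119. The change of the GFP+ minus GFP- difference between 3 and 2 dpf was not called for any fast gene (mylpfa -1.24 ± 0.38, adjusted p = 0.168), and 0.71% of all probe sets were called there. At 6 dpf ckma scored -0.24, -0.14 and -0.11 in GFP+ and 0.49, 0.50 and -0.06 in GFP- cells and was called lower by 0.47 ± 0.16 (adjusted p = 0.0289). That call was lost without the first or second array of either fraction at 6 dpf, among them the second GFP- array (-0.38, adjusted p = 0.127).

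Not every fast gene fell. The fast myosin binding protein gene mybpc2b was higher over the 4 ages in GFP+ cells by 0.37 ± 0.10 (adjusted p = 0.00264), with group means of 0.70, 0.75, 0.57 and 0.47 at 2, 3, 4 and 6 dpf in GFP+ and of 0.54, 0.19, 0.13 and 0.16 at 2, 3, 4 and 6 dpf in GFP- cells. At 6 dpf its GFP+ scores were 0.75, 0.75 and -0.08, the third being the array that stands apart, and its GFP- scores 0.09, 0.0017 and 0.39. Without that array the difference at 6 dpf was 0.59 (adjusted p = 0.00771), against 0.31 with it (adjusted p = 0.2). The tropomyosin gene tpm1 measured 0.19 ± 0.15 between 6 and 2 dpf in GFP+ and -0.18 ± 0.15 in GFP- cells and was called in neither. Parvalbumin genes pvalb3 and pvalb4, the calcium pump gene atp2a1l, the actinin gene actn3b and the troponin I genes tnni2a.2 and tnni2a.3 stayed at group means between -0.71 and 0.07. Of these 6, pvalb4 fell in GFP- cells between 6 and 2 dpf (-0.49 ± 0.12, adjusted p = 0.00715), which was not called without the first GFP- array at 2 dpf (-0.36, adjusted p = 0.054).

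Other measures moved along with the fall of the fast genes. The digestive organ markers rose between 6 and 2 dpf in 12 of 20 cases and fell in 3 in GFP+ cells. In GFP- cells 18 of 20 rose. Cartilage and connective tissue markers fell in 6 of 8 cases in GFP+ and 7 of 8 in GFP- cells. Between these ages 9.17% of all probe sets rose and 13% fell in GFP+ cells, and 8.77% rose and 9.64% fell in GFP- cells. Epidermis markers fell in 4 of 6 cases in GFP+ cells (median -1.71) and in 1 of 6 in GFP- cells (median -0.44). Their summed score ranged from 2.03 to 3.88 at 6 dpf and from 10.6 to 10.9 at 2 dpf on the GFP+ arrays, and from 11.3 to 12.9 at 6 dpf and from 12.5 to 15.4 at 2 dpf on the GFP- arrays. A measure meant for RNA integrity is the score of the array's muscle actin control near the 3' end less its score near the 5' end. In GFP+ cells it was 0.40, 0.69 and -0.75 at 6 dpf, against 1.39, 1.69 and 2.04 at 2 dpf. In GFP- cells it was 1.42, 1.1 and 0.65 at 6 dpf, against 2.18, 2.03 and 1.55 at 2 dpf. This control is annotated to actc1b, a member that itself fell in both fractions. Its measure therefore cannot tell RNA integrity from the fall of that gene. Near the 3' end its mean was 0.45 at 6 dpf and 2.01 at 2 dpf in GFP+ cells, and 0.93 and 2.27 in GFP- cells. Near the 5' end it was 0.34 at 6 dpf and 0.30 at 2 dpf in GFP+ cells, and -0.13 and 0.35 in GFP- cells. The GAPDH control gave -0.13, -0.10 and 0.27 at 6 dpf and 0.75, 0.40 and 0.53 at 2 dpf in GFP+ cells. In GFP- cells it gave 0.85, 0.24 and 0.35 at 6 dpf and 0.24, 0.27 and 0.27 at 2 dpf. The GAPDH measure was lower at 6 dpf on all GFP+ arrays and overlapped between the ages in GFP- cells. The part of cell composition and RNA quality in the fall was not tested.

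A second set of muscle genes was already low in GFP+ cells at 2 dpf, and its falls were called in the GFP- fraction alone. Whether a fall in GFP+ cells could have been seen from scores that low was not tested. The 6 shown are all members whose GFP+ minus GFP- difference changed upward with all arrays, apart from myh10, and were picked for the plot after seeing the values. Without the array that stands apart, desma (1.43, adjusted p = 0.00147) and pvalb4 (0.61, adjusted p = 0.0237) changed upward as well. The myosin light chain genes myl13 and myl10 show the pattern of this set most plainly. At 6 dpf the myl13 scores were -0.23, -0.35 and -0.52 in GFP+ and -0.56, -0.51 and -0.64 in GFP- cells. At 2 dpf they were -0.53, -0.47 and -0.44 in GFP+ and 0.84, 0.84 and 1.12 in GFP- cells, and myl10 scored -0.52, -0.39 and -0.49 in GFP+ and 0.71, 1.04 and 0.81 in GFP- cells. GFP+ scores of myl13 and myl10 stayed below 0 at every age, and GFP- scores fell below 0 by 4 dpf. At 2 dpf GFP+ was lower by 1.41 ± 0.11 for myl13 (adjusted p = 1.43e-07) and by 1.32 ± 0.11 for myl10 (adjusted p = 2.82e-07). Between 6 and 2 dpf GFP- cells fell by 1.5 ± 0.11 for myl13 and by 1.44 ± 0.11 for myl10 (adjusted p = 1.23e-08 and 2.38e-08). In GFP+ cells the same differences were 0.11 ± 0.11 and -0.04 ± 0.11 and were not called. The GFP+ minus GFP- difference changed between 6 and 2 dpf by 1.62 ± 0.15 for myl13 (adjusted p = 3.64e-06) and by 1.40 ± 0.15 for myl10 (adjusted p = 2.69e-05).

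The fast troponin I gene tnni2b.1 behaved likewise, unlike its paralog tnni2a.4. At 6 dpf it scored -0.25, -0.27 and -0.40 in GFP+ and -0.40, -0.52 and -0.51 in GFP- cells, and at 2 dpf -0.21, 0.34 and -0.08 in GFP+ and 1.09, 1.02 and 1.21 in GFP- cells. The GFP+ minus GFP- difference was 0.17 ± 0.12 at 6 dpf (adjusted p = 0.266) and -1.09 ± 0.12 at 2 dpf (adjusted p = 3.89e-06), a change of 1.26 ± 0.17 (adjusted p = 0.000139). At 6 dpf the skeletal actin gene acta1a scored -0.30, -0.38 and -0.40 in GFP+ and -0.40, -0.53 and -0.41 in GFP- cells. At 2 dpf its scores were -0.42, 0.01 and -0.06 in GFP+ and 0.46, 0.33 and 0.74 in GFP- cells, a difference of -0.67 ± 0.11 (adjusted p = 0.000173). That difference changed between 6 and 2 dpf by 0.75 ± 0.15 (adjusted p = 0.00347). At 2 dpf the fractions did not overlap for either gene, and at 6 dpf acta1a overlapped. Whether tnni2b.1 and tnni2a.4 differ in their change was not tested.

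The muscle regulators myog and myod1, transcription factors that drive myoblasts into differentiation, were also on the GFP- side at 2 dpf. For myog the 6 dpf scores were -0.30, -0.37 and -0.21 in GFP+ and -0.56, -0.52 and -0.68 in GFP- cells. At 2 dpf they were -0.25, -0.48 and -0.45 in GFP+ and -0.24, 0.02 and 0.41 in GFP- cells, which do not overlap, and the third GFP- array was the highest. The difference at 2 dpf was -0.46 ± 0.12 (adjusted p = 0.00972), and without the third GFP- array of that age -0.29, adjusted p = 0.0761. For myod1 the 6 dpf scores were -0.44, -0.40 and -0.47 in GFP+ and -0.59, -0.54 and -0.61 in GFP- cells, and the 2 dpf scores -0.54, -0.42 and -0.44 in GFP+ and -0.27, -0.11 and 0.12 in GFP- cells, without overlap at 2 dpf. All group means of myod1 were below the array median. GFP- cells fell between 6 and 2 dpf by 0.65 ± 0.12 for myog (adjusted p = 0.000519) and by 0.49 ± 0.09 for myod1 (adjusted p = 0.000442). The difference between the fractions changed by 0.75 ± 0.17 for myog (adjusted p = 0.00689) and by 0.52 ± 0.12 for myod1 (adjusted p = 0.0117).

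**Figure D3:**
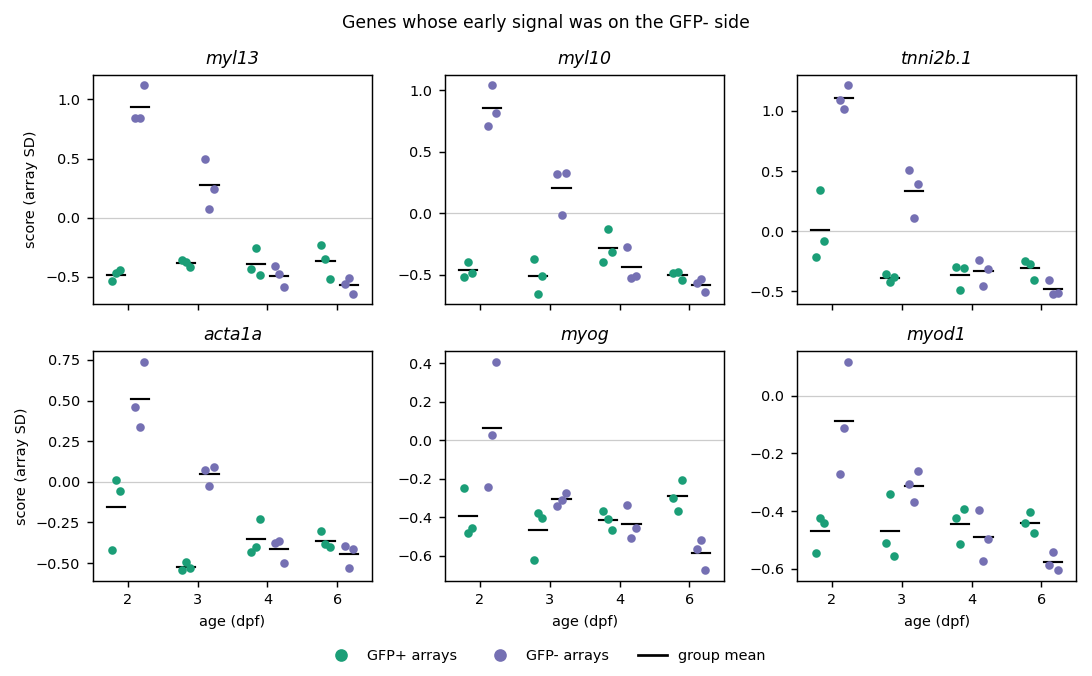
Scores of myl13, myl10, tnni2b.1, acta1a, myog and myod1 on each of the 24 arrays (y axis, array SD) by age in dpf (x axis), with GFP+ and GFP- arrays as points and group means as short lines. At 2 dpf the GFP+ mean is below the GFP- mean for each gene, as for myl13 with -0.48 in GFP+ and 0.93 in GFP- cells, and at 4 dpf the myl13 means are -0.39 in GFP+ and -0.49 in GFP- cells.

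The myosin chaperone gene unc45b, which folds myosin heads, followed the regulators at 2 dpf, with -0.18, 0.14 and -0.09 in GFP+ and 0.23, 0.57 and 0.92 in GFP- cells. The difference was -0.61 ± 0.15 (adjusted p = 0.00733), and without the third GFP- array it was -0.44, adjusted p = 0.0606. GFP- cells fell by 0.82 ± 0.15 for unc45b between 6 and 2 dpf (adjusted p = 0.000595). Desmin, the intermediate filament of muscle, has a pair of genes. For desma the 6 dpf scores were 0.72, 0.58 and -0.50 in GFP+ and -0.02, -0.31 and -0.16 in GFP- cells, and the 2 dpf scores -0.37, 0.13 and 0.41 in GFP+ and 0.59, 0.61 and 0.79 in GFP- cells. Its fate in GFP+ cells turns on the array that stands apart, the only GFP+ array below 0 at 6 dpf. With all arrays the change of the GFP+ minus GFP- difference was 1.04 ± 0.34 (adjusted p = 0.0636), and without that array it was 1.43 (adjusted p = 0.00147). Between 6 and 2 dpf desma measured 0.21 in GFP+ cells (adjusted p = 0.584), and 0.60 without that array (adjusted p = 0.0256). In GFP- cells it fell by 0.83 ± 0.24 (adjusted p = 0.0189), which was not called without the third GFP- array at 2 dpf (-0.76, adjusted p = 0.076) or the second at 6 dpf (-0.75, adjusted p = 0.0725). The other gene, desmb, lay between -0.55 and -0.44 in all 8 group means and was called in no comparison. Of the 5 genes of this group 3 were lower at 2 dpf (17% of all probe sets called, 7.36% lower). In GFP- cells 4 of the 5 fell between 6 and 2 dpf, where 9.64% of all probe sets fell.

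A list of slow skeletal muscle genes, made by hand, holds 4 members, and they did not move together. Whether these genes mark slow fibres here was not tested. The slow myosin heavy chain gene smyhc1, described below, is not a member. The actinin gene actn2b, whose product anchors thin filaments at the Z disc, rose in GFP- cells. Its GFP- scores were -0.50, -0.40 and -0.43 on day 2, -0.38, 0.29 and -0.31 on day 3, 0.82, 0.64 and 0.66 on day 4 and 1.39, 0.80 and 0.71 on day 6. Its GFP+ scores lay between -0.61 and -0.06 at all ages, so the fractions parted at 4 and 6 dpf. GFP- rose by 1.41 ± 0.17 between 6 and 2 dpf (adjusted p = 5.94e-06), GFP+ was lower by 1.27 ± 0.17 at 6 dpf (adjusted p = 7.46e-06), and the difference changed by -1.3 ± 0.24 (adjusted p = 0.00177). The tropomyosin gene tpm3 kept group means between 2.51 and 3.02 in all groups, with a difference over the 4 ages of 0.06 (95% interval -0.08 to 0.20). It fell between 6 and 2 dpf by 0.51 ± 0.13 in GFP- cells (adjusted p = 0.00998), and without the first GFP- array at 6 dpf measured -0.41, adjusted p = 0.0711. The fall of tpm3 in GFP+ cells (-0.38 ± 0.13, adjusted p = 0.0476) was lost without any one of many single arrays, its adjusted p being highest (-0.29, adjusted p = 0.161) without the first GFP+ array at 2 dpf. The myozenin gene myoz1b, a Z disc protein, was below the median throughout and higher over the 4 ages in GFP+ cells by 0.17 ± 0.04 (adjusted p = 0.00198). Its calls at 4 dpf (0.28 ± 0.09) and 6 dpf (0.24 ± 0.09) did not hold in fits of those ages alone (adjusted p = 0.138 and 0.141). The troponin T gene tnnt2c was higher at 6 dpf (0.35 ± 0.12, adjusted p = 0.0286), but not without the third GFP+ array (0.20, adjusted p = 0.171).

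Cardiac sarcomere genes number 9, and 6 of them were lower in GFP+ cells over the 4 ages, where 58.4% of all probe sets were called and 20.7% were lower. Among the 6 are myl10, whose place in this list is doubtful, and actc1b, which behaved like the fast skeletal genes, as described below. Another is tpm4a, whose call was lost without any one of 14 arrays (-0.16, adjusted p = 0.0858, without the third GFP- array at 2 dpf). At 6 dpf the actin gene actc1a scored 0.11, 0.03 and -0.33 in GFP+ and 0.15, 1.02 and 0.02 in GFP- cells. At 2 dpf it scored -0.0003, 0.81 and 1.06 in GFP+ and 1.60, 1.54 and 1.64 in GFP- cells. The fractions overlap at 6 dpf and do not at 2 dpf. Over the 4 ages actc1a was lower in GFP+ cells by 0.62 ± 0.13 (adjusted p = 0.000467), and it fell in GFP- cells by 1.2 ± 0.26 between 6 and 2 dpf (adjusted p = 0.00254). The 2 dpf difference (-0.97 ± 0.26, adjusted p = 0.0128) was not called without the first GFP+ array, which holds the lowest score (-0.66, adjusted p = 0.0995).

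The cardiac troponin T gene tnnt2a and the cardiac light chain gene myl7 varied between replicates in both fractions. At 2 dpf tnnt2a scored -0.57, -0.42 and 0.61 in GFP+ and 0.84, 0.71 and 0.73 in GFP- cells. At 4 dpf the scores were -0.48, 0.35 and -0.20 in GFP+ and -0.07, 1.11 and 0.15 in GFP- cells, and at 6 dpf -0.28, -0.30 and -0.66 in GFP+ and 0.54, 1.14 and 0.01 in GFP- cells. The third GFP+ array at 2 dpf and the second GFP- arrays at 4 and 6 dpf are the high ones of their groups, and the same arrays are high for myl7. Over the 4 ages tnnt2a was lower in GFP+ cells by 0.63 ± 0.16 (adjusted p = 0.00228). At 6 dpf the difference was -0.98 ± 0.32 (adjusted p = 0.0216), without the third GFP+ array -0.85, adjusted p = 0.07, and without the second GFP- array -0.69, adjusted p = 0.131. For myl7 the 3 dpf scores were 1.18, 0.83 and 0.83 in GFP+ and 0.67, 0.85 and 0.87 in GFP- cells and overlapped. At 6 dpf they were -0.07, 0.09 and 0.16 in GFP+ and 0.79, 1.59 and 0.32 in GFP- cells. Over the 4 ages myl7 was lower by 0.46 ± 0.17 (adjusted p = 0.0261), which was not called without the first GFP+ array at 2 dpf (-0.39, adjusted p = 0.0546) or the second GFP- array at 6 dpf (-0.38, adjusted p = 0.0544). Among the 5 measured heart markers that are not members, 1 was called higher and 1 lower over the 4 ages: gata4, which endoderm also expresses, at 0.19 and hand2 at -0.26.

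The actin gene actc1b, which the heart and early somites both express, behaved like the fast skeletal genes. It scored 0.98, 1.12 and -0.49 at 6 dpf and 1.63, 2.14 and 2.14 at 2 dpf in GFP+ cells, and 1.08, 1.08 and 0.63 at 6 dpf and 2.67, 2.20 and 1.78 at 2 dpf in GFP- cells. The third GFP+ array at 6 dpf lies far below its group. Between 6 and 2 dpf actc1b fell by 1.43 ± 0.32 in GFP+ and by 1.29 ± 0.32 in GFP- cells (adjusted p = 0.00243 and 0.00709). In a fit of the 6 GFP+ arrays alone the fall in GFP+ cells had an adjusted p of 0.0626. A second actc1b probe set above the median gave -1.48 in GFP+ and -1.24 in GFP- cells, while the 4 differences of another pair below the median lay between -0.036 and 0.022. Over the 4 ages actc1b was called lower by 0.42 ± 0.16 (adjusted p = 0.0321), and the pair below the median was called higher, by 0.21 and 0.23, so this call depends on the probe set. It was also lost without any one of 7 arrays, for example the first GFP- array at 2 dpf (-0.36, adjusted p = 0.0641). The tropomyosin gene tpm4a fell by 0.95 ± 0.17 in GFP+ (adjusted p = 0.000312) and by 1.29 ± 0.17 in GFP- cells (adjusted p = 1.90e-05), with means of 0.02 at 6 dpf and 0.97 at 2 dpf in GFP+ cells. The myosin binding protein gene mybpc3, the heavy chain gene myh7 and the troponin C gene tnnc1a had all group means below the median. Of these 3, mybpc3 was called, at 6 dpf (0.22 ± 0.08, adjusted p = 0.0442), and not without the third GFP+ array (0.19, adjusted p = 0.116).

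Smooth muscle and non-muscle members number 8, and 5 of them were lower in GFP+ cells over the 4 ages, where 58.4% of all probe sets were called (20.7% lower). The smooth muscle actin gene acta2 rose early in the GFP- fraction. Its GFP- scores were 0.29, 0.23 and 0.11 on day 2, 0.91, 1.42 and 0.96 on day 3, 0.78, 1.14 and 0.70 on day 4 and 1.42, 0.85 and 0.77 on day 6. On the GFP+ arrays it stayed between -0.21 and 0.0006 at all ages, so no array of the fractions overlaps at any age. Its GFP+ minus GFP- difference at 2 dpf was nevertheless not called. In GFP- cells acta2 rose by 0.89 ± 0.15 between 3 and 2 dpf (adjusted p = 0.000991) and by 0.80 ± 0.15 between 6 and 2 dpf (adjusted p = 0.00061). At 6 dpf GFP+ was lower by 1.11 ± 0.15 (adjusted p = 8.17e-06), and the change of that difference since 2 dpf was -0.74 ± 0.21 (adjusted p = 0.0329). That change was not called when any of 8 single arrays was left out, the smallest in size being -0.53, adjusted p = 0.0935 without the first GFP- array at 6 dpf. Of the other smooth muscle markers outside the rule, tagln (-0.43) and smtnb (-0.98) were lower and mylka (0.48) was higher in GFP+ cells over the 4 ages.

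The non-muscle actinin gene actn1, which crosslinks actin at adhesions, was lower in GFP+ cells at each age. Its 6 dpf scores were 0.55, 1.0 and 0.74 in GFP+ and 1.17, 1.64 and 1.19 in GFP- cells. At 2 dpf they were 1.52, 1.12 and 0.91 in GFP+ and 2.39, 1.96 and 2.34 in GFP- cells. The difference was -1.05 ± 0.22 at 2 dpf (adjusted p = 0.00186), -0.86 ± 0.22 at 3 dpf, -1.16 ± 0.22 at 4 dpf and -0.57 ± 0.22 at 6 dpf (adjusted p = 0.0449). The fractions do not overlap at any age, yet the 6 dpf call was lost without any array of that age but the second GFP+ array, with values from -0.42, adjusted p = 0.195, without the second GFP- array, to -0.65, adjusted p = 0.0512, without the first. The non-muscle heavy chain gene myh9a scored -0.13, 0.10 and -0.02 in GFP+ and 1.16, 0.85 and 0.27 in GFP- cells at 2 dpf, lower by 0.78 ± 0.17 (adjusted p = 0.00262). It fell in GFP- cells by 0.79 ± 0.17 between 6 and 2 dpf (adjusted p = 0.00215). The essential light chain gene myl6 was lower in GFP+ cells over the 4 ages by 0.34 ± 0.05 (adjusted p = 9.88e-06), with group means of 1.21, 1.04, 1.13 and 0.85 at 2, 3, 4 and 6 dpf in GFP+ and of 1.44, 1.5, 1.47 and 1.16 at 2, 3, 4 and 6 dpf in GFP- cells.

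For myh10, another non-muscle heavy chain gene, the GFP+ minus GFP- difference changed with age. The scores were 1.09, 1.03 and 1.26 in GFP+ and 0.90, 0.97 and 0.97 in GFP- cells at 6 dpf, and 0.92, 0.91 and 0.97 in GFP+ and 1.1, 1.24 and 1.62 in GFP- cells at 2 dpf. The difference was 0.18 ± 0.11 at 6 dpf (not called, adjusted p = 0.192) and -0.39 ± 0.11 at 2 dpf (adjusted p = 0.0181), a change of 0.57 ± 0.16 (adjusted p = 0.0257). With the third GFP- array at 2 dpf left out, the highest of its group, the change was 0.42, adjusted p = 0.0734, and the 2 dpf difference -0.24, adjusted p = 0.139. The regulatory light chain gene myl12.1 had group means between 2.93 and 3.29 in all groups, and its difference over the 4 ages was -0.08 (95% interval -0.19 to 0.04). It fell between 6 and 2 dpf in GFP- cells (-0.36 ± 0.11, adjusted p = 0.0272), a call lost without single arrays, its adjusted p being highest (-0.29, adjusted p = 0.139) without the second GFP- array at 2 dpf. Its other probe sets fell between 6 and 2 dpf by 1.00 and 0.75 in GFP+ and by 1.27 and 0.97 in GFP- cells. The tropomyosin gene tpm4b was lower over the 4 ages by 0.33 ± 0.11 (adjusted p = 0.014). Its second probe set, with a lower mean, measured 0.0031 (adjusted p = 0.972), so this call depends on the probe set. The light chain gene myl9b was called in no comparison.

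Parvalbumins outside fast muscle gave the 4 largest differences between the fractions over the 4 ages, from -2.18 for pvalb5 to -1.01 for pvalb6. The genes pvalb5 to pvalb9 encode small calcium buffers, of which pvalb8 and pvalb9 carry the synonyms ocma and ocmb of oncomodulin. Of the 5 genes 4 were lower in GFP+ cells at 3, 4 and 6 dpf, and 3 at 2 dpf. Of all probe sets 7.36%, 12%, 11.3% and 14.9% were lower at 2, 3, 4 and 6 dpf. On the GFP- arrays pvalb5 scored 1.76, 1.49 and 1.08 on day 2, 1.95, 1.87 and 1.8 on day 3, 2.57, 2.20 and 2.48 on day 4 and 2.05, 2.68 and 2.62 on day 6. All 12 GFP+ arrays scored between -0.44 and 0.42. GFP+ was lower by 2.6 ± 0.20 at 6 dpf and by 1.68 ± 0.20 at 2 dpf (adjusted p = 2.51e-08 and 8.48e-06). It rose in GFP- cells by 1.01 ± 0.20 between 6 and 2 dpf (adjusted p = 0.00104). The change of the difference was -0.92 ± 0.28 (adjusted p = 0.0478), and it was lost in 16 of the 24 fits without 1 array. Without the third GFP+ array at 6 dpf it was -0.77, adjusted p = 0.0902, and without the third GFP- array at 2 dpf -0.74, adjusted p = 0.142. Quantile normalization ended the call as well (adjusted p = 0.0513), as did a fit of the 2 and 6 dpf arrays alone (adjusted p = 0.0668).

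For pvalb8 the GFP- scores were 1.32, 1.37 and 0.88 on day 2, 1.2, 1.33 and 1.66 on day 3, 2.76, 3.01 and 2.64 on day 4 and 2.04, 2.51 and 2.01 on day 6. On the GFP+ arrays they were -0.32, 0.47 and -0.19 on day 2, -0.13, -0.23 and 0.39 on day 3, -0.28, 0.61 and 0.75 on day 4 and 0.08, -0.24 and -0.04 on day 6. The GFP- arrays at 4 and 6 dpf lie above all others, and the rise of 1.41 ± 0.25 between 4 and 3 dpf was called (adjusted p = 0.00262). At 6 dpf GFP+ was lower by 2.25 ± 0.25 (adjusted p = 1.09e-06) and at 2 dpf by 1.2 ± 0.25 (adjusted p = 0.00193), while the change of -1.05 ± 0.35 between these ages was not called (adjusted p = 0.0712). The gene pvalb9 was lower in GFP+ cells by 1.24 ± 0.23 at 6 dpf and 0.96 ± 0.23 at 2 dpf, and its change in GFP- cells, 0.41 ± 0.23, was not called (adjusted p = 0.256). Its 6 dpf scores were -0.31, -0.31 and 0.11 in GFP+ and 1.15, 1.17 and 0.88 in GFP- cells, without overlap. At 3 dpf the difference without the third GFP- array was -0.65, adjusted p = 0.0558.

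The gene pvalb6 rose between 3 and 2 dpf. It scored 1.69, 1.33 and 1.19 at 3 dpf and 0.35, -0.25 and -0.19 at 2 dpf in GFP- cells, a rise of 1.43 ± 0.25 (adjusted p = 0.0017). In GFP+ cells it scored -0.06, 0.24 and -0.04 at 3 dpf and -0.55, -0.37 and -0.43 at 2 dpf, a difference of 0.50 ± 0.25 (adjusted p = 0.633). At 4 dpf its GFP- scores were 1.52, -0.08 and 0.89, the widest spread of its groups, against -0.21, 0.01 and -0.27 in GFP+ cells. Without the first GFP- array at 4 dpf the difference of that age (-0.93 ± 0.25, adjusted p = 0.00857) was -0.56, adjusted p = 0.0708. For pvalb7 the group means lay between -0.39 and 0.03, and it was called in no comparison.

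**Figure D4:**
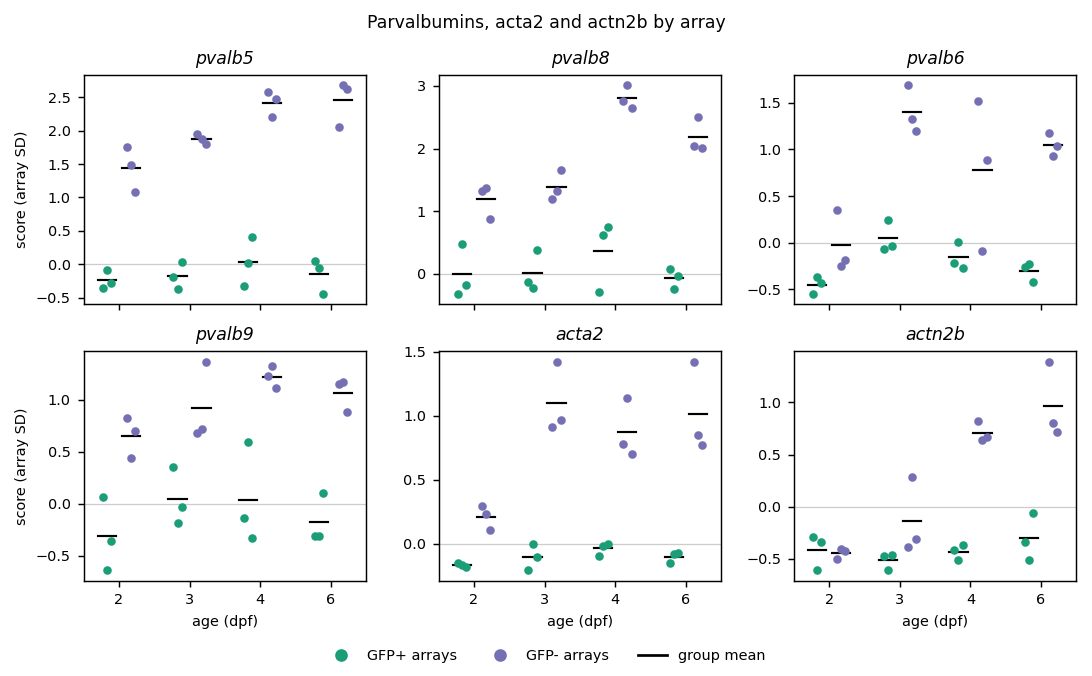
Scores of pvalb5, pvalb8, pvalb6, pvalb9, acta2 and actn2b on each of the 24 arrays (y axis, array SD) by age in dpf (x axis), with GFP+ and GFP- arrays as points and group means as short lines. GFP- means lie above GFP+ means for every gene at 3, 4 and 6 dpf, as for pvalb8 at 4 dpf with 0.36 in GFP+ and 2.81 in GFP- cells.

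In GFP- cells 5 of 7 measured retina and lens markers rose between 6 and 2 dpf, where 8.77% of all probe sets did. Of the 7, 6 were lower and 1 higher in GFP+ cells over the 4 ages (20.7% of all probe sets lower, 37.7% higher). Between 3 and 2 dpf 5 of them rose in GFP- cells (3.2% of all probe sets). Their summed score ranged from 1.16 to 1.85 on the GFP+ arrays and from 15.4 to 17.9 on the GFP- arrays at 6 dpf. On the GFP- arrays it ranged from 14.7 to 17.3 at 3 dpf and from 0.16 to 3.51 at 2 dpf. All 11 neuron markers were lower in GFP+ cells over the 4 ages. The part of these tissues in the parvalbumin, acta2 and actn2b scores was not tested.

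Set side by side, the changes within each fraction fall into these patterns. Genes such as mylpfa, ckma and atp2a1 lie low on both axes of the plot of age changes. The members myl13, myl10 and tnni2b.1 lie low on the GFP- axis alone, and actn2b, pvalb5 and acta2 lie high on it. Of the 10 members whose difference between the fractions changed, 7 were called in every fit that left out 1 of the 24 arrays, the exceptions being acta2, myh10 and pvalb5. The 2 to 6 dpf falls were called in all of these fits for 12 of 16 members in GFP+ cells, and calls of either direction for 27 of 32 in GFP- cells. The axes of this plot share no arrays.

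**Figure D5:**
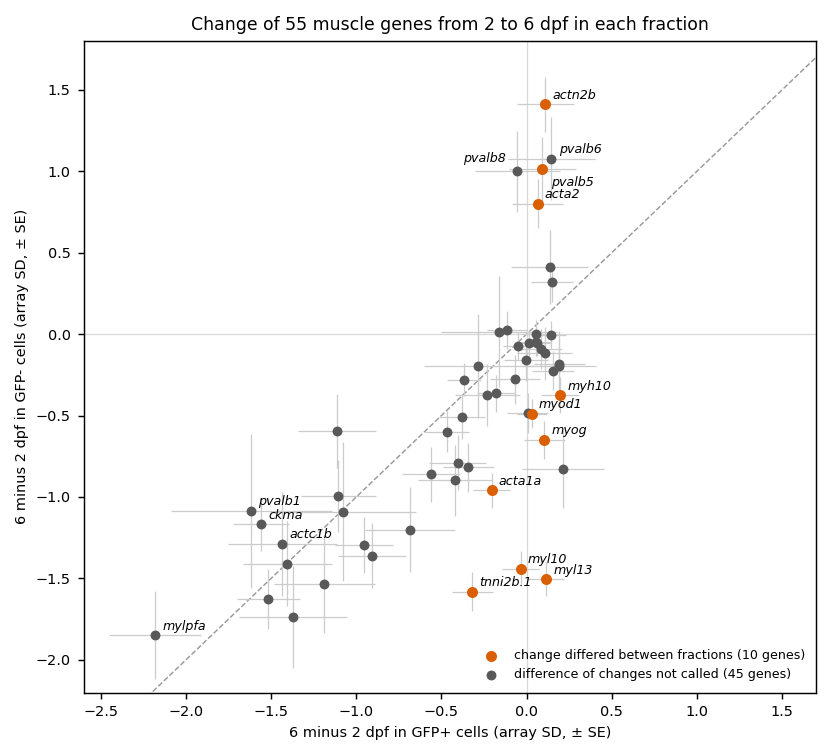
Difference between 6 and 2 dpf of the 55 members in GFP+ cells (x axis) against GFP- cells (y axis), in array SD with SE bars; orange marks the 10 members whose GFP+ minus GFP- difference changed (adjusted p under 0.05) and grey the other 45. The gene mylpfa lies at -2.18 in GFP+ and -1.85 in GFP- cells, and myl13 at 0.11 in GFP+ and -1.5 in GFP- cells.

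Muscle genes outside the rule were counted over lists of structural genes, regulators and energy enzymes. Of 23 measured muscle structural genes 9 fell and 1 rose in GFP- cells between 6 and 2 dpf, where 18.4% of all probe sets were called (9.64% lower). In GFP+ cells 4 fell and 1 rose, a share near the 22.2% of all probe sets called (13% lower). The slow myosin heavy chain gene smyhc1, named here with neb after the values were seen, scored -0.69, -0.73 and -0.68 at 2 dpf in GFP+ and 0.57, 0.67 and 0.17 in GFP- cells. It was lower by 1.17 ± 0.12 in GFP+ cells at that age (adjusted p = 1.88e-06) and fell by 1.24 ± 0.12 in GFP- cells by 6 dpf (adjusted p = 5.54e-07), the pattern of myl13. The giant thin filament gene neb fell by 0.54 ± 0.12 in GFP+ and 0.75 ± 0.12 in GFP- cells, the pattern of mylpfa. Over the 4 ages 7 of the 23 were lower and 4 higher in GFP+ cells, fewer than the 58.4% of all probe sets. The largest differences were those of nexn (-1.89 ± 0.09), an actin binding protein, mb (-0.97 ± 0.05), myoglobin, flncb (-0.96 ± 0.08), a filamin, and xirp2a (0.86 ± 0.09), of intercalated discs and muscle ends.

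Among 12 measured genes of a list of muscle regulators 3 were lower and 4 higher over the 4 ages, a share near the 58.4% of all probe sets called. The largest difference was that of the transcription factor mef2ca (-1.48 ± 0.11), which neurons also express. This list holds srl, the calcium binding protein sarcalumenin, which is no regulator and stands in the structural list too. Of 11 measured enzymes of muscle energy supply 4 were lower and 4 higher in the same comparison, with the mitochondrial creatine kinase gene ckmt2a at -2.27 ± 0.15, the glycogen phosphorylase gene pygmb at -1.40 ± 0.07 and the muscle enolase gene eno3 at 1.12 ± 0.09. In GFP- cells 4 of these enzymes rose and 1 fell between 6 and 2 dpf, where 8.77% of all probe sets rose and 9.64% fell. In GFP+ cells 2 of the enzymes rose and 5 fell, where 9.17% of all probe sets rose and 13% fell. The genes most like the mean of the fast members, by Pearson correlation over the 8 group means, were cbx2 (0.988), the fast light chain gene mylz3 (0.986), mybphb (0.951), aldoab (0.951), pdlim7 (0.950), fbxl14a (0.941), acvr1l (0.941) and neb (0.940). These correlations describe 8 group means that share arrays with the profile.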

How the data were processed

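RNA of sorted GFP+ and GFP- cells at 2, 3, 4 and 6 dpf was amplified and hybridized to 24 zebrafish expression arrays, 3 per group. The authors' deposited table holds scores for 15617 probe sets. The submitters' processing notes name RMA, and each deposited column has a median of 0 and an SD of 1; for the log base and the step that scaled the columns, no label or header gives an account. The planned test took log2 values for granted. It was run on the scores as deposited, so differences are in array SD and no fold changes are given. Arrays give no read depth; the number of arrays limits the precision.

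Probe sets were named from the platform annotation, with 10802 having 1 symbol, 135 several and 4680 none. Of 63 member probe sets, 1 per gene was used, the one with the highest mean over the 24 arrays, and 55 of 55 members are in RefSeq. Left out were 115 control probe sets, 4 of them actins matching the rule, and 4 probe sets with several symbols that matched it. limma 3.58.1 in R 4.3.3 fitted 8 group means over 24 arrays (lmFit, eBayes, residual df 16, prior df 3.59) across 15502 probe sets, with Benjamini-Hochberg adjustment over all. The script was tested on simulated data. Every adjusted p in the text comes from limma, and intervals are 95% intervals of the fit. The 8 planned comparisons set GFP+ against GFP- at each age and over the 4 ages, 6 against 2 dpf in each fraction, and the change of the difference; 7 more were added after seeing the data. The plan was to give per-array values for the 3 members of each role with the largest difference over the ages, and for the largest rises, falls and changes. They are given for many of these and for some others, but not for all, tnnt3b, myoz1b and tnnt2c being examples without them. Members, lists and tests were chosen with earlier results of these data known.

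The fractions were not treated as paired, since not every pair passed 0.1: same-numbered arrays of an age correlated at -0.079 to 0.312 in their deviations from group means, with 4 of 12 pairs over 0.1. Alternatives were a replicate block, quantile normalization, a filter on probe sets with low means, an average over the probe sets of each gene, fits of only the arrays compared, and leaving out each array.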

Additional observations from a re-analysis of the deposited data

Results flagged for a closer look

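For 10 members the GFP+ minus GFP- difference changed between 6 and 2 dpf by the test of that change itself. The changes in array SD were 1.62 for myl13, 1.40 for myl10, 1.26 for tnni2b.1, 0.75 for myog, 0.75 for acta1a, 0.57 for myh10 and 0.52 for myod1. They were -1.30 for actn2b, -0.92 for pvalb5 and -0.74 for acta2. For myl13 the difference also changed between 3 and 2 dpf, by 0.76, and this call was lost in 3 of the alternative fits. The pvalb5 change was lost in 16 of the 24 fits without 1 array, and with quantile normalization (adjusted p = 0.0513). The acta2 and myh10 changes were also lost without single arrays. With 3 arrays a group, no test for an outlying value within a group was run.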

How the results depend on the processing

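Over 5324 refits of single members that were called, 0 reversed, 354 lost the call and 4970 kept it. Members not called were left out of this count, so calls gained do not appear in it. Many of these refits left out 1 array of a group outside the comparison. There the difference stays the same and cannot reverse, and only the spread and the adjustment change. The count of refits kept is therefore no measure of how firm the calls are. In each fit that left out 1 array the number of members called was 12 to 19 at 2 dpf, 14 to 23 at 3 dpf, 6 to 10 at 4 dpf, 6 to 14 at 6 dpf and 26 to 33 over the 4 ages for GFP+ minus GFP-. It was 12 to 18 in GFP+ and 30 to 33 in GFP- cells between 6 and 2 dpf, and 7 to 11 for the change of the difference. Between 3 and 2 dpf it was 5 to 11 in GFP+ and 6 to 14 in GFP- cells, between 4 and 3 dpf 0 to 2 in GFP+ and 6 to 11 in GFP- cells, and between 6 and 4 dpf 0 in GFP+ and 0 to 1 in GFP- cells. The change of the difference between 3 and 2 dpf was called for 0 to 2. Quantile normalization left 8 members called at 6 dpf and 0 between 4 and 3 dpf in GFP+ cells, and the cause was not tested. The filter on low means kept 26 of the 55 members and 7751 probe sets. Among these 8 were called at 2 dpf, 19 over the 4 ages, 18 between 6 and 2 dpf, 6 between 3 and 2 dpf and 4 between 4 and 3 dpf in GFP- cells, 5 for the change of the difference and 0 for that between 3 and 2 dpf. With an average over the probe sets of each gene 1 was called between 6 and 4 dpf in GFP+ cells. Fits of only the arrays compared, which have fewer residual degrees of freedom, called 4 between 3 and 2 dpf in GFP+ cells, 0 between 4 and 3 dpf in either fraction, and 2 for the change of the difference between 3 and 2 dpf. With a replicate block 17, 21, 9 and 12 members were called at 2, 3, 4 and 6 dpf, 31 over the 4 ages and 11 for the change, and no count moved by over 1.5 times. The block ended the calls of mybpc2b (adjusted p = 0.0688) and myl1 (adjusted p = 0.0684) at 3 dpf, of mybpc3 (adjusted p = 0.0958) and myoz1b (adjusted p = 0.0643) at 6 dpf, of atp2a1 over the 4 ages (adjusted p = 0.0817) and of the pvalb5 change (adjusted p = 0.0783). Without both the array that stands apart and the third GFP- array at 4 dpf, a setting chosen after seeing the data, these counts were 17, 23, 8, 10, 29 and 11.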

Other observations

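For 17 of the 55 members no GFP+ minus GFP- difference was called at any age or over the 4 ages. Of these, myhz1.3, tnni2a.4, tnnt3a and tpm3 fell between 6 and 2 dpf in both fractions, pvalb1 fell in GFP+ and myl12.1 and desma in GFP- cells. At all 4 ages actn1, pvalb5, pvalb8 and pvalb9 were called lower in GFP+ cells. For neither set is the share over all probe sets at hand, so both describe these members only.

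The third GFP- array at 4 dpf had a median digestive marker score of 2.62, against 1.15 and 0.86 on the other arrays of its group. Its mean over the fast members, -0.16, lay between those of the same arrays, -0.093 and -0.28.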
